A study of Mus musculus with 30 samples.

Results

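Hand1, Hand2, Isl1, Nkx2-5, Tbx5, Tbx20, Mef2c, Myocd, Myl7 and Tnnt2 are early cardiac genes of the mouse, and they were followed here by RNA-seq in embryonic stem (ES) cells and in embryoid bodies (EBs), the aggregates that ES cells form when they differentiate in suspension. The 10 genes were taken by name from the 23284 genes of each deposited table, and all 10 were present in both tables. Of the 4 libraries that compare genotypes, 2 came from EBs at day 4 of a Trp53-/- line in which short hairpins also target p63 and p73. This group is called p53 family loss. The other 2 came from EBs at day 4 of a Trp53+/+ line. Both lines have a C57BL/6J background, came from another laboratory and were kept as ES cells in N2B27 medium with LIF and 2 inhibitors (2i). A further 10 libraries came from E14Tg2a.IV cells, called E14 here, a wild-type line of 129/Ola background kept in serum with LIF, sampled as ES cells (day 0) and as EBs at days 1, 2, 3 and 4, with 2 libraries a day. The RNA labels name no Activin A or SB431542 treatment. E14 thus differs from the other lines in background, culture and origin, each genotype is 1 line, and the loss of p53 cannot be told apart from the hairpins or from the line that carries both.

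The heart forms from mesoderm that leaves the primitive streak early and moves to the front and sides of the embryo. Within this mesoderm, GATA, T-box, homeobox, MADS-box and basic helix-loop-helix (bHLH) factors act together, and contractile proteins of the sarcomere appear later, when beating muscle forms. Most of the factors are not particular to the heart: Hand1 also marks extraembryonic mesoderm and trophoblast, Isl1 motor neurons, and Mef2c skeletal muscle and neurons.

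The labels fitted the markers checked. In p53 family loss EBs Trp53 was at 866 and 802.5 normalised reads, against 8339 and 11784 in Trp53+/+ EBs, and Trp73 was at 48.0 and 52.5, against 219 and 297. Trp63 stayed at or under 8.70 in all 14 libraries, so its hairpin could not be checked. A normalised read count is the read count of a gene divided by 1 factor per library, and the libraries held 20104644 to 39835808 reads in the E14 table and 19104692 to 31580252 in the genotype table. The ES cell gene Zfp42 was at 21590.2 and 20872 at day 0 and at 371 and 511 at day 4 of E14. No cell was counted or sorted, so in all that follows fewer cells of a type and less RNA per cell cannot be told apart.

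Promoter sequence is shown for Hand2, Tbx20, Isl1 and Myl7, 4 of the members called higher at day 4 than at day 3. These are the 250 bases before the RefSeq start of each gene, build GRCm38.p6, 5′ to 3′ on the strand of the gene. Capitals mark each match, on either strand, to a motif searched. The bHLH recognition sequence, or E-box, was spelled CANNTG. The GATA factor site was searched as AGATAA, and other spellings of it were not searched. For T-box factors the search used AGGTGT. The CArG box, bound by serum response factor, was searched by its usual consensus. A TATA box, a TCF/LEF site and a p53 half-site were also searched, and none was found in these 4 windows.
Hand2, chr8:57320733-57320982, plus strand: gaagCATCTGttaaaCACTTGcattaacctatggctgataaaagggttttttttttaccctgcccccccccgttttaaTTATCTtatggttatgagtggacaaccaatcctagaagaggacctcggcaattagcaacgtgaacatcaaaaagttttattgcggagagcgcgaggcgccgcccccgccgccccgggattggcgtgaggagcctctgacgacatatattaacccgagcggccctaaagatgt
Tbx20, chr9:24774304-24774553, minus strand: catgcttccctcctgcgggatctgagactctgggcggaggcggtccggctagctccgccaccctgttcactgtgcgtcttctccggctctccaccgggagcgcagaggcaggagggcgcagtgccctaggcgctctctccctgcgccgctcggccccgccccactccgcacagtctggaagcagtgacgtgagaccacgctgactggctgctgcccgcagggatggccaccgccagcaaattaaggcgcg
Isl1, chr13:116309689-116309938, minus strand: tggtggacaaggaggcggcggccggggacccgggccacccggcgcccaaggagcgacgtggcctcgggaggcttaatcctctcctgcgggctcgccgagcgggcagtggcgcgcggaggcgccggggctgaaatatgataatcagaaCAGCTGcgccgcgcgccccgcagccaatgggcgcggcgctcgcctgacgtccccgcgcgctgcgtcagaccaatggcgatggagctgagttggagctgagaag
Myl7, chr11:5898783-5899032, minus strand: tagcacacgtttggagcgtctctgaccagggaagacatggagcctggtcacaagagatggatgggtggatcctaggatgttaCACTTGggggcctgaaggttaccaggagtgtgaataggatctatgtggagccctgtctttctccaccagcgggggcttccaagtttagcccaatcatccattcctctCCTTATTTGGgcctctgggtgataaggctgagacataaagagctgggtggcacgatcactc

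The Hand2 sequence held E-boxes 246 and 235 bases before the start and a GATA match on the reverse strand 172 bases before it. The Myl7 sequence held a CArG box 61 bases before the start and an E-box at 168, and the Isl1 sequence held 1 E-box at 103. None of these motifs was found in the Tbx20 window. Among 32851 RefSeq promoters of the same length, 66.22% held an E-box, 11.83% the T-box letters, 9.988% the GATA letters and 1.467% a CArG box, so an E-box match is common and a CArG box is not. The table had entries for 7 of the 10 members, and none for Hand1, Tbx5 and Myocd. These matches are letters in a window, and no binding was measured at them here.

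The comparison of days addressed which cardiac genes were higher in EBs at day 4 than in ES cells, and on which day they moved. By day 4 of E14, 8 of the 10 genes had risen against day 0, and for 6 of these the step between day 3 and day 4 alone passed the test. Hand1, Hand2, Tbx20, Isl1 and Myl7 reached levels of 228 normalised reads or more in both day 4 libraries, whereas Mef2c, Myocd and Tbx5 stayed at or under 49.5 on that day. Nkx2-5 and Tnnt2 did not pass the test. Of all 15841 genes tested with limma (Benjamini-Hochberg adjusted p under 0.05), 19.2% were called higher at day 4 than at day 0 and 16.7% lower. The members were chosen with earlier results known, and 3 of the 8 could be tested because they were high at day 4, so nothing is read from their count.

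**Figure D1:**
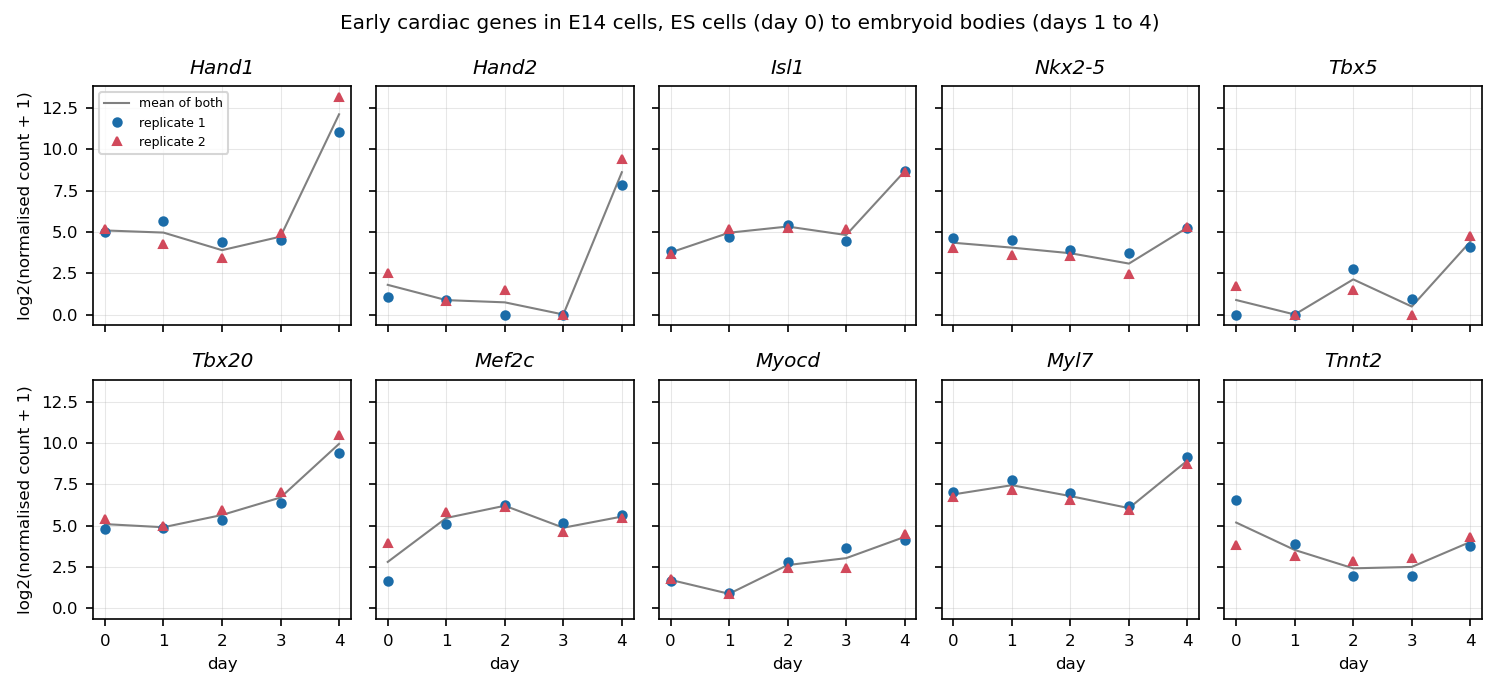
Level of each early cardiac gene in E14 cells, as log2 of the normalised count plus 1 (vertical axis), against the day (horizontal axis, 0 for ES cells and 1 to 4 for EBs). Circles are replicate 1, triangles replicate 2, and the line joins their means. Hand1, Hand2, Isl1, Tbx20 and Myl7 stand higher at day 4 than on any earlier day, Mef2c is up from day 1, and Tnnt2 has its highest library at day 0.

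The bHLH genes Hand1 and Hand2, which act in ventricle, outflow and lateral mesoderm, stayed low until day 3. Hand1 had 30.7 and 35.6 normalised reads at day 0, 49.1 and 18.4 at day 1, 19.6 and 9.78 at day 2, 21.9 and 29.1 at day 3, and 2145 and 9272 at day 4. Both day 4 libraries lay above every earlier one, and replicate 2 lay far above replicate 1. The log2 fold change of Hand1 was 7.03 ± 0.69 (SE) against day 0 (limma adjusted p = 9.3e-05) and 7.41 ± 0.69 against day 3 (adjusted p = 0.00071).

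Hand2 had 1.10 and 4.75 normalised reads at day 0, 0.862 and 0.798 at day 1, 0 and 1.78 at day 2, 0 and 0 at day 3, and 228 and 674 at day 4. It was thus close to absent before day 4 at this depth, with no read in either day 3 library. Against a floor of 3 reads per library it was at least 125-fold higher at day 4 than at day 3 (limma adjusted p = 0.00060). Against day 0 its log2 fold change was 6.82 ± 0.77 (adjusted p = 0.00019). Hand2 and Tbx5 passed the filter on low counts with reads above its cutoff in the day 4 libraries alone, and Myocd with both libraries above it at day 4 alone, so these genes could be tested because they were higher there.

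Among the homeobox factors, Isl1 marks the second heart field, the progenitors that lengthen the heart tube, and Nkx2-5 is a core factor of cardiac progenitors and muscle. Isl1 had 13.2 and 11.9 normalised reads at day 0, 25.0 and 35.9 at day 1, 42.1 and 36.4 at day 2, 21.0 and 35.0 at day 3, and 419.8 and 395 at day 4. Its day 4 libraries lay close together and far above the others. The log2 fold change of Isl1 was 4.92 ± 0.40 against day 0 (limma adjusted p = 4.1e-05) and 3.86 ± 0.40 against day 3 (adjusted p = 0.0016), the smallest SE but one among the members.

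Nkx2-5 had 24.1 and 15.4 normalised reads at day 0, 21.5 and 11.2 at day 1, 13.7 and 10.7 at day 2, 12.4 and 4.37 at day 3, and 37.1 and 38.1 at day 4. The day 4 libraries were the highest, yet the difference from day 0 was 0.92 ± 0.57 on the log2 scale and did not pass (limma adjusted p = 0.23). Against day 3 it was 2.19 ± 0.57 (adjusted p = 0.079), and this step was called when either day 0 library was left out (adjusted p = 0.037 without replicate 1 and 0.036 without replicate 2).

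The T-box factor Tbx20 acts in the primitive heart tube and Tbx5 in the first heart field and atria. Tbx20 had 26.3 and 41.6 normalised reads at day 0, 27.6 and 30.3 at day 1, 39.1 and 61.3 at day 2, 82.0 and 129.6 at day 3, and 685 and 1427 at day 4. Its day 3 libraries already lay above all earlier ones, a step of 1.06 ± 0.46 on the log2 scale that was not called (limma adjusted p = 0.48). The log2 fold change of Tbx20 was 4.86 ± 0.46 against day 0 (adjusted p = 7.9e-05) and 3.25 ± 0.46 against day 3 (adjusted p = 0.0055), and the step between day 3 and day 4 was no longer called without day 3 replicate 1 (adjusted p = 0.090) or without day 4 replicate 2 (adjusted p = 0.10).

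Tbx5 had 0 and 2.37 normalised reads at day 0, 0 and 0 at day 1, 5.87 and 1.78 at day 2, 0.954 and 0 at day 3, and 15.7 and 26.1 at day 4. In reads, day 4 held 43, against 2 at day 0 and 1 at day 3. Allowing for library size, the day 4 level was 17.7 times that of day 0 (95% exact interval 4.61 to 151, counting error only; limma adjusted p = 0.0071) and 35.0 times that of day 3 (5.95 to 1414; adjusted p = 0.028). The day 4 group did not overlap the earlier days, but the call against day 3 was lost without any single library of day 3 or day 4 (adjusted p = 0.11 to 0.28), and that against day 0 without day 4 replicate 2 (adjusted p = 0.060) or with DESeq2 (adjusted p = 0.0505).

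Mef2c, a MADS-box factor of the second heart field and of muscle, had EB levels above its ES cell levels on every day. It had 2.20 and 14.2 normalised reads at day 0, 32.7 and 56.7 at day 1, 75.4 and 70.2 at day 2, 34.3 and 23.3 at day 3, and 49.5 and 42.4 at day 4. Its highest libraries were those of day 2, and no EB library overlapped the ES cell libraries. The log2 fold change of Mef2c at day 4 against day 0 was 2.75 ± 0.66 (limma adjusted p = 0.011), and the call was lost without day 4 replicate 1 (adjusted p = 0.068) or replicate 2 (adjusted p = 0.053). It was 1.62 without day 0 replicate 1 (adjusted p = 0.023) and 3.87 without day 0 replicate 2 (adjusted p = 0.00028). At day 1 against day 0 the difference was 2.66 ± 0.66, which missed the threshold (adjusted p = 0.061).

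Myocd encodes myocardin, the co-activator of serum response factor in cardiac and smooth muscle. It had 2.20 and 2.37 normalised reads at day 0, 0.862 and 0.798 at day 1, 5.87 and 4.44 at day 2, 11.4 and 4.37 at day 3, and 16.5 and 21.7 at day 4. The levels were low throughout and highest at day 4, with no single step that passed the test. The log2 fold change of Myocd was 2.60 ± 0.58 at day 4 against day 0 (limma adjusted p = 0.0072), and without day 4 replicate 2 the adjusted p was 0.059.

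The sarcomere genes Myl7, an atrial myosin light chain of the early heart tube, and Tnnt2, cardiac troponin T, had different courses. Myl7 had 129.5 and 107 normalised reads at day 0, 217 and 139 at day 1, 127 and 94.2 at day 2, 72.5 and 59.7 at day 3, and 571 and 424 at day 4. It was thus measurable in ES cells and lowest at day 3. The log2 fold change of Myl7 was 2.05 ± 0.34 against day 0 (limma adjusted p = 0.0017) and 2.88 ± 0.34 against day 3 (adjusted p = 0.0024).

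Tnnt2 had 93.3 and 13.1 normalised reads at day 0, 13.8 and 7.98 at day 1, 2.94 and 6.22 at day 2, 2.86 and 7.28 at day 3, and 12.4 and 18.5 at day 4. One ES cell library stood far above all others, and the day 4 libraries lay on either side of the second ES cell library. At day 4 against day 0 the difference was -1.17 ± 0.85 on the log2 scale (limma adjusted p = 0.30). It was 0.20 without day 0 replicate 1 and -2.55, called lower, without day 0 replicate 2. In the same day 0 replicate 1, all 6 smooth muscle markers were above their values in replicate 2, and their summed level was 451 CPM, reads scaled to a library total common to all libraries, against 243 CPM in replicate 2. The 2 day 0 libraries lay apart for many genes, with a median absolute log2 difference of 0.543 and 24.9% of tested genes over 1 apart. Replicate 1 was also higher for 6 of 8 primitive streak and 6 of 8 ES cell markers. Replicate 2 was higher for 6 of 9 endothelial and blood and 4 of 5 neural crest markers. The difference was thus not particular to smooth muscle markers, and the part of any cell type in the Tnnt2 value was not tested.

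Over the steps between neighbouring days, limma called 6 of 10 members higher from day 3 to day 4, against 2.31% of all tested genes, and none in the 3 earlier steps. In those steps 3.3%, 0.593% and 0.133% of all tested genes were called, so few genes of any kind passed. The members were chosen with earlier results known, and Hand2 and Tbx5 could be tested because they were high at day 4. Nothing is therefore read from the count of 6. From day 0 to day 1, 2 members had an unadjusted p under 0.05 (Isl1 and Mef2c), close to the 20.1% of all tested genes, and edgeR called 0 and DESeq2 called Mef2c. Without day 0 replicate 2, many more genes of all kinds passed in that step, Mef2c and Tnnt2 among them, so nothing is read from those calls. From day 1 to day 2 there were 2 such members (Myocd and Tbx5), against 19.3% of all tested genes, and from day 2 to day 3 there was 1 (Tbx20), against 10.4%, with 0 called by edgeR and by DESeq2 in both steps, where DESeq2 gave no adjusted p for Myocd and Tbx5. A test of any change over the 5 days called the 8 genes that differed between day 4 and day 0, against 38.9% of all tested genes. Nkx2-5 (adjusted p = 0.075) and Tnnt2 (adjusted p = 0.089) were not called.

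Other cardiac genes, listed from textbook knowledge, were counted in the same fit as regulators and as contractile genes. Of 31 tested cardiac regulators other than the members, 17 rose and 2 fell at day 4 against day 0, and their median log2 fold change was 1.12, against 0.01 over all tested genes. Gata4, a zinc finger factor of cardiac mesoderm and endoderm, had 4193 and 4189 normalised reads at day 4, against 53.8 and 40.4 at day 0. Gata6, its relative, had a log2 fold change of 6.02, the second heart field ligand Fgf10 one of 6.46, and Mesp1, which marks the first cardiac mesoderm, one of 9.15. Of all tested genes, 19.2% rose and 16.7% fell in this comparison. Of 27 other sarcomere and muscle function genes, 5 rose and 5 fell, close to those shares, with a median of -0.29. The rises were those of the calcium channel Cacna1c (3.86), the sodium-calcium exchanger Slc8a1 (3.45), cardiac actin Actc1 (3.36), the pacemaker channel Hcn4 (3.24) and Tnnt3 (2.58), and without day 4 replicate 2 the test called 6 of the 27 instead of 10. The falls were those of Mybpc3 (-3.52), Ttn (-3.38), Nppb (-2.70), Ryr2 (-2.40) and Ldb3 (-2.12). Mybpc3, Ttn, Ldb3 and Hcn4 were named after their values were seen. At day 0 the 2 libraries lay far apart for Ttn (mean 1534, SD 1775 normalised reads), Nppb (61.2, SD 56.3) and Ldb3 (291, SD 196). They lay closer together for Ryr2 (339, SD 7.02) and Mybpc3 (37.4, SD 10.9). From day 3 to day 4, 11 of the 31 regulators and 2 of the 27 sarcomere genes rose, and none fell. Of all tested genes, 2.31% rose in that step.

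Markers of other cell types were counted in the same way, beside the 19.2% of all tested genes called higher and the 16.7% called lower. All 8 primitive streak markers, all 8 early mesoderm markers and all 6 definitive endoderm markers rose at day 4 against day 0. Their medians were 6.53, 6.84 and 6.09 on the log2 scale, and Mesp1 and Gsc each stand in more than 1 of the lists. The summed early mesoderm level was 1057 and 1005 CPM at day 4, against 25.3 and 80.5 CPM at day 0. Of 9 tested endothelial and blood markers 5 rose and 2 fell, and of 6 visceral and parietal endoderm markers 3 passed and all 3 rose. Of 7 tested trophoblast markers, 2 rose and 1 fell at day 4 against day 0, and Prl3d1 and Tpbpa had no read in any of the 6 day 4 libraries. Of 8 tested skeletal muscle markers, 2 passed the test and both fell, and of 7 tested motor neuron and neural markers 1 rose and 3 fell. The summed neural level was 14.0 and 25.2 CPM at day 4 of E14, against 177 and 191 CPM at day 0. Of 9 tested extraembryonic and lateral mesoderm markers, 4 passed and all 4 rose, and their summed level was 524 and 861 CPM at day 4, against 433 and 454 CPM at day 0. The part of these cell types in the rises of the members was not tested.

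For the 5 members that reached a group mean of 10 CPM in E14, the genes with the most similar course were looked up by Pearson's r of the log2 values over the 10 E14 libraries, among 10094 genes that reached the same level. The nearest genes were Foxf1a (r = 0.979), Msx2 (0.974) and Capn6 (0.973) for Hand1, Nrp1 (0.990), Morc4 and Hhex for Hand2, and Hmga2 (0.988), St6galnac4 and Smad1 for Tbx20. For Isl1 they were Fgf3 (0.986), Cxcr4 and Slit1, and for Myl7 Mylip (0.940), Znrf1 and Phlda2. Days and libraries are shared by all these genes, and the day 4 libraries stand apart from the other days, so these coefficients describe a common course and carry no p-value.

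A further description concerned how far the 2 libraries of a group lay apart at day 4. Hand1, Hand2 and Tbx20 differed widely between the libraries in every one of the 3 day 4 groups, and always in the same direction within a group, whereas Isl1 did not. In E14, replicate 2 exceeded replicate 1 by 2.11 on the log2 scale for Hand1, 1.56 for Hand2 and 1.06 for Tbx20. The median absolute difference over all tested genes was 0.168 there, and only 0.48%, 1.39% and 4.23% of them were as far apart as these members. The counting errors of the 3 differences were 0.0323, 0.104 and 0.0640 (SE), so the gaps were well beyond the counting of reads. Isl1 differed by -0.09, Nkx2-5 by 0.04, Mef2c by -0.22 and Myl7 by -0.43 between the same libraries.

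**Figure D2:**
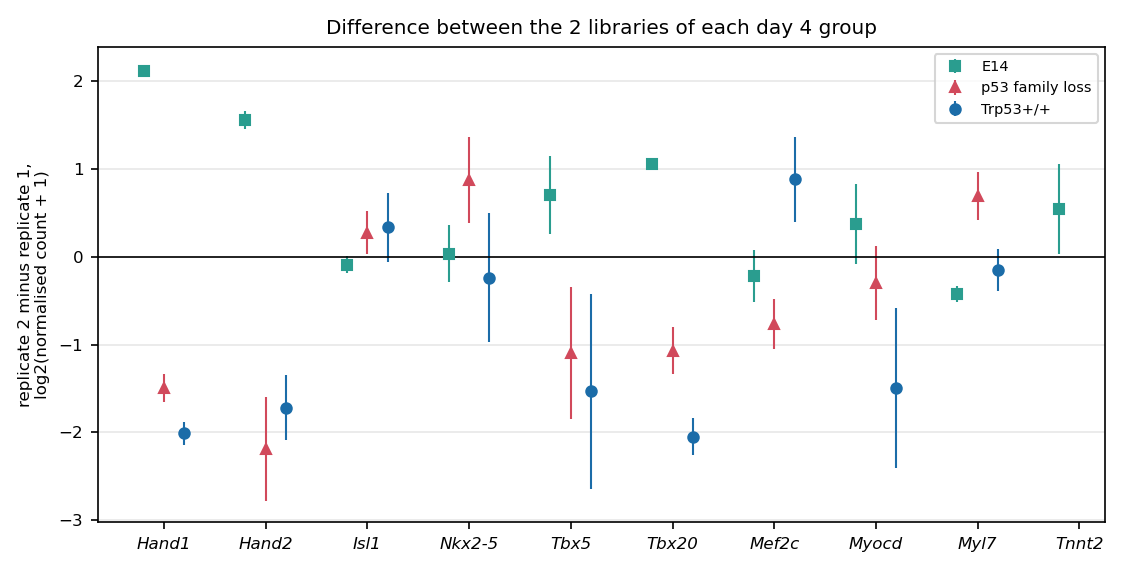
Replicate 2 minus replicate 1 of each day 4 group, on the log2(normalised count + 1) scale (vertical axis), for each gene (horizontal axis). Squares are E14, triangles p53 family loss and circles Trp53+/+, and bars are the counting error (SE). Hand1, Hand2 and Tbx20 lie above 0 in E14 and below 0 in the other groups, and Isl1 lies within 0.34 of 0 in all 3. Tnnt2 is shown for E14, where it was tested.

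In p53 family loss EBs replicate 1 was the higher one, with Hand1 at -1.49, Hand2 at -2.19 and Tbx20 at -1.07 for replicate 2 minus replicate 1. In Trp53+/+ EBs the values were -2.01 for Hand1, -1.72 for Hand2 and -2.05 for Tbx20. Of the tested genes in p53 family loss, 1.05% were as far apart as Hand1, 0.142% as Hand2 and 3.26% as Tbx20. In Trp53+/+ these shares were 0.957%, 1.81% and 0.883%. The counting errors of Hand1, Hand2 and Tbx20 were 0.159, 0.589 and 0.264 in p53 family loss. In Trp53+/+ they were 0.129, 0.372 and 0.211. Hand2 had only 7 reads in p53 family loss replicate 2. Tbx5 followed the same order, at 0.70 in E14, -1.10 in p53 family loss and -1.53 in Trp53+/+, but with counting errors of 0.443, 0.752 and 1.11. Myocd did as well, at 0.38, -0.30 and -1.49, with counting errors of 0.456, 0.419 and 0.912. Isl1 was at 0.28 in p53 family loss and 0.34 in Trp53+/+, within or close to its counting errors of 0.247 and 0.391. In p53 family loss Nkx2-5 was at 0.87, Mef2c at -0.76 and Myl7 at 0.69, with counting errors of 0.489, 0.287 and 0.275. In Trp53+/+ these genes were at -0.24, 0.89 and -0.15, with counting errors of 0.732, 0.484 and 0.241. Replicate numbers name libraries and carry no order or shared culture between E14 and the other lines.

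Markers of extraembryonic and lateral mesoderm differed between the same libraries. Replicate 2 was higher for 9 of 9 of them in E14 (median difference 1.06), and replicate 1 for 9 of 9 in p53 family loss (median -0.64) and 7 of 9 in Trp53+/+ (median -0.78). The primitive streak markers had medians of -0.03 in E14, -0.03 in p53 family loss and 0.19 in Trp53+/+, and the early mesoderm markers -0.04, -0.12 and -0.78 in the same groups. In Trp53+/+ replicate 1 was thus also higher for 6 of 8 early mesoderm markers, and for 5 of 6 definitive endoderm (median -1.15) and 6 of 6 visceral and parietal endoderm markers (median -1.56). In p53 family loss it was also higher for 5 of 7 trophoblast markers (median -0.59). The same held for 5 of 6 visceral and parietal endoderm (-0.56) and 8 of 10 endothelial and blood markers (-0.53). Medians there were above 0 for neural crest (0.50), definitive endoderm (0.47), smooth muscle (0.24) and neural markers (0.15). The shift was thus not particular to extraembryonic and lateral mesoderm. In E14, Foxf1a, a forkhead factor of lateral and extraembryonic mesoderm, had 259.8 and 1011 normalised reads in replicates 1 and 2, and Bmp4, a ligand made there, 1129.8 and 2558. Gata4, at 4193 and 4189, and Pdgfra, a receptor of early mesoderm, at 3749.8 and 3709, were nearly equal in those libraries. In Trp53+/+ EBs they were not, with Gata4 at 1437 and 755 and Pdgfra at 1194 and 671 in replicates 1 and 2. The part of these cell types in the spread of Hand1, Hand2 and Tbx20 was not tested.

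Across the 6 day 4 libraries of all 3 groups, Hand1 and Hand2 varied in near proportion. Hand1 had 73.9 and 310.4 CPM in E14, 11.1 and 3.70 CPM in p53 family loss and 32.5 and 7.64 CPM in Trp53+/+, an 83.8-fold range. Hand2 ranged 93.1-fold, from 0.242 to 22.6 CPM, and Tbx20 32.9-fold, from 1.45 to 47.8 CPM. The quotient of Hand1 reads by Hand2 reads within a library, which depends on the lengths of both genes and serves only to compare libraries, stayed between 8.11 and 15.3. That of Hand1 by Tbx20 stayed between 2.55 and 6.50, whereas that of Hand1 by Isl1 ran from 1.53 to 30.1. The quotient of 15.3 and the lowest Hand2 CPM came from p53 family loss replicate 2, where Hand2 had 7 reads. These are descriptions of 6 libraries from 3 lines, and E14 stood in another table and another culture than the rest.

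**Figure D3:**
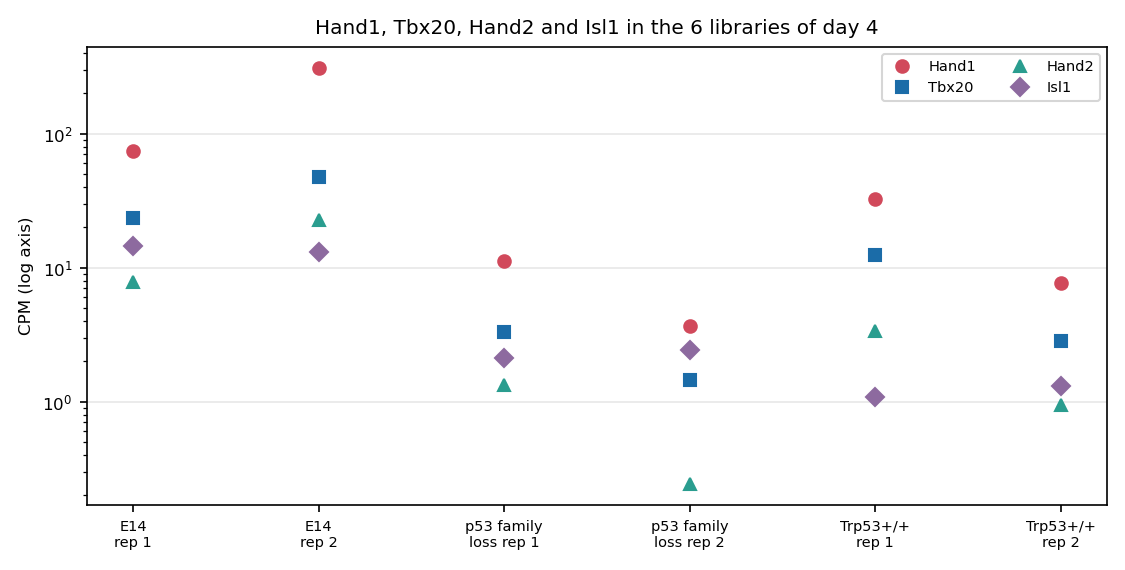
CPM (log axis) of Hand1, Tbx20, Hand2 and Isl1 in each of the 6 day 4 libraries (horizontal axis), 2 each from E14, p53 family loss and Trp53+/+. Hand1, Tbx20 and Hand2 go up and down together from library to library, while Isl1 stays at 13.2 to 14.5 CPM in E14 and at 1.08 to 2.42 CPM in the other lines.

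The comparison of genotypes addressed whether loss of the p53 family altered these genes in EBs at day 4. Limma called 0 of the 9 tested members, against 1.24% of 14840 tested genes, and Tnnt2 was too low to be tested. One member, Isl1, had an unadjusted p under 0.05, against 13.9% of all tested genes, and edgeR and DESeq2 called 0 as well. The order of the libraries is given here as a description only. Isl1, Mef2c, Myocd and Nkx2-5 were higher in both p53 family loss libraries than in either Trp53+/+ library, and Myl7 was lower, while Hand1, Hand2, Tbx20 and Tbx5 overlapped. Groups without overlap were common, since 43.1% of all tested genes had them, so 5 of 9 is close to the share of all genes.

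**Figure D4:**
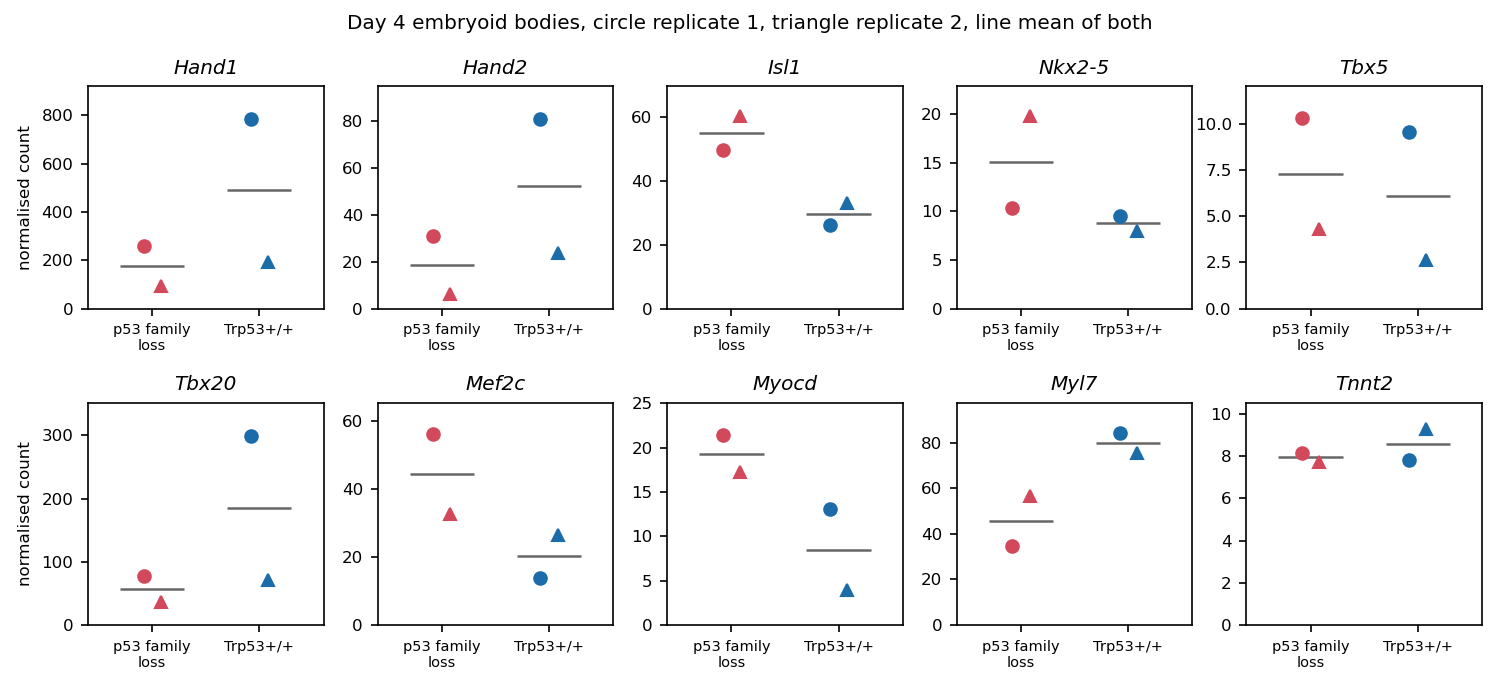
Normalised count (vertical axis, from 0 and on its own scale for each gene) of the early cardiac genes in p53 family loss EBs (left in each panel) and Trp53+/+ EBs (right) at day 4. Circles are replicate 1, triangles replicate 2 and lines the mean of both. The groups overlap for Hand1, Hand2, Tbx20, Tbx5 and Tnnt2, and not for the other 5 genes.

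Hand1 had 260.2 and 92.0 normalised reads in p53 family loss EBs, against 784 and 194 in Trp53+/+ EBs. Hand2 had 31.0 and 6.02 in p53 family loss, against 80.8 and 23.9 in Trp53+/+. Tbx20 had 76.9 and 36.1 in p53 family loss, against 299.7 and 71.6 in Trp53+/+. The mean of each was lower with p53 family loss, but the higher library of p53 family loss lay above the lower library of Trp53+/+ for all 3 genes. The log2 fold changes were -1.33 ± 0.73 for Hand1 (limma adjusted p = 0.51), -1.59 ± 0.86 for Hand2 (0.50) and -1.46 ± 0.70 for Tbx20 (0.45). Each of the 4 libraries moved these values. Without p53 family loss replicate 1 they were -2.07 for Hand1, -2.68 for Hand2 and -1.99 for Tbx20, and without p53 family loss replicate 2 they were -0.58, -0.49 and -0.92, with none called in either case. Without Trp53+/+ replicate 1 they were -0.32, -0.73 and -0.43 and none was called, and without Trp53+/+ replicate 2 they were -2.33, -2.45 and -2.48 and all 3 were called lower. A fit with the replicate number as a block also called all 3 lower, but nothing in the labels says that the numbers pair the libraries.

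Isl1 had 49.5 and 60.2 normalised reads in p53 family loss EBs, against 26.1 and 33.2 in Trp53+/+ EBs, a log2 fold change of 0.87 ± 0.35 (limma adjusted p = 0.34). Mef2c had 56.2 and 32.7 in p53 family loss, against 13.9 and 26.5 in Trp53+/+, a change of 1.12 ± 0.49 (adjusted p = 0.39). Neither gene passed, although each p53 family loss library lay above each Trp53+/+ library for both. Myocd had 21.4 and 17.2 in p53 family loss, against 13.0 and 3.98 in Trp53+/+ (1.27 ± 0.62, adjusted p = 0.45), and it was called higher without Trp53+/+ replicate 1 (2.02, adjusted p = 0.040) but was 0.53 without Trp53+/+ replicate 2 (adjusted p = 0.83). Nkx2-5 had 10.3 and 19.8 in p53 family loss, against 9.56 and 7.96 in Trp53+/+ (0.66 ± 0.52, adjusted p = 0.67). With each library left out in turn, the value of Isl1 ran from 0.70 to 1.04, that of Mef2c from 0.67 to 1.56 and that of Nkx2-5 from 0.22 to 1.10, and none was called.

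Myl7 had 34.7 and 56.8 normalised reads in p53 family loss EBs, against 84.3 and 75.6 in Trp53+/+ EBs, a log2 fold change of -0.83 ± 0.36 (limma adjusted p = 0.38), which ran from -1.18 to -0.48 with each library left out. The sign of its value was that of Hand1, Hand2 and Tbx20 and opposite to that of Isl1 and Mef2c. None of these genes was called, so nothing is read from the signs. Tbx5 had 10.3 and 4.30 in p53 family loss, against 9.56 and 2.65 in Trp53+/+ (0.32 ± 0.74, adjusted p = 0.90), and its sign turned without Trp53+/+ replicate 2 (-0.44) or p53 family loss replicate 1 (-0.23). Tnnt2 had 8.13 and 7.74 in p53 family loss, against 7.82 and 9.29 in Trp53+/+.

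Beside these genes, of 29 tested cardiac regulators 2 passed the test, against 1.24% of all tested genes. Both fell with p53 family loss, Mesp1 (log2 fold change -3.40) and the ligand Fgf8 (-1.45), and both also stand in the primitive streak list. More regulators passed when any 1 of the 4 libraries was left out. Those fits hold 1 library in a group, so nothing is read from their counts. Gata4, at 303 and 270.1 normalised reads in p53 family loss against 1437 and 755 in Trp53+/+, did not pass (-1.86 ± 0.32, limma adjusted p = 0.061). Of 25 tested sarcomere and muscle function genes limma called 0 (8 had an unadjusted p under 0.05), edgeR called 0 and DESeq2 called 2. The limma count also varied with the library left out. Marker lists of other cell types moved with the genotypes. Of 8 early mesoderm markers 3 passed and all 3 fell, as did 2 of 6 definitive endoderm markers. Mesp1 is among those 3 and the streak marker Gsc among those 2, so the lists share called genes. All 8 primitive streak markers fell, with a median of -2.40 and summed levels of 324 to 346.5 CPM in p53 family loss against 1494 to 1624 CPM in Trp53+/+. Of 7 tested motor neuron and neural markers, 3 passed and all 3 rose, Sox1 and Pax6 among them, with summed levels of 234.5 to 241 CPM in p53 family loss against 63.8 to 89.2 CPM in Trp53+/+. Isl1, Mef2c and Hand2 are also expressed in neurons, and the part of neural cells in their values was not tested.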

How the data were processed

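The 14 RNA-seq libraries were used; 16 ChIP-seq or input samples were not. The submitters' processing notes name build mm9 with the tools DESeq2, HTSeq 0.5.4, SAMtools 0.1.19, Bowtie2 and FastQC 0.11.3, without a stated role for each, and the labels give paired-end reads from TruSeq RNA v2 libraries. The 2 tables the authors deposited hold, per gene symbol, a signal, which is reads over a size factor of the library. Dividing each column by its smallest step gave whole reads for 100% of values (tolerance 1e-06), which gave the depths and CPM. Strand is not stated, nor whether libraries of 1 group come from separate cultures, and p-values then reflect only the spread between these libraries.

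Each table was fitted whole with limma 3.58.1 (R 4.3.3) on log2(signal + 1), with a mean trend and Benjamini-Hochberg adjustment at 0.05, on genes kept by edgeR's filterByExpr (15841 and 14840, with 5 and 2 residual degrees of freedom). Fold changes are on that scale and understate changes of low genes. Alternatives were pseudocounts of 0.1 and 10, no filter, TMM scaling, edgeR 4.0.16, DESeq2 1.42.0, a replicate block, fewer days and each library left out, where a lone library is assumed to vary like the others. The fit was tested on simulated data. The rule for names took all members, up to 4 called genes per list with the smallest p, and the 3 nearest genes by correlation. Members and lists were chosen with earlier results of these data known. Foxf1 appears in the tables as Foxf1a. The floor is 3 reads per library, and floors and intervals hold for counting error alone because PCR copies are not independent molecules.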

Additional observations from a re-analysis of the deposited data

How the results depend on the processing

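Over the alternatives run, 8 members were called between day 4 and day 0 in most settings, 7 with DESeq2 and with the day 0 and day 4 libraries alone, and 5 to 9 with each library left out. From day 0 to day 1 the count was 0, but 1 with a pseudocount of 10 and with DESeq2, and 0 to 2 with each library left out. Over all genes that step had 523 calls with limma and 1450 with DESeq2, the step from day 3 to day 4 had 464 and 1026, and the genotype comparison had 184 and 657. With a pseudocount of 10, Nkx2-5 was called between day 4 and day 3 (adjusted p = 0.043), and Tbx5 was not called there with a pseudocount of 0.1 or with edgeR. Between the genotypes 0 members were called, and 0 to 3 with each library left out. The count of other cardiac regulators called there was 2, against 4 without the filter, 11 with DESeq2 and 5 to 14 with each library left out. That of other sarcomere genes was 0, against 2 with DESeq2 and 0 to 8 with each library left out, and at day 4 against day 0 it was 10, with 6 to 11. With each library left out Tnnt2 at day 4 against day 0 ran from -2.55 to 0.20, and Tbx5 between the genotypes from -0.44 to 1.09. Leaving out a library leaves 1 in its group, and in the time course it changed the calls over all genes too. Nothing is therefore read from the counts with each library left out. The causes were not tested.

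The labels do not say that replicate numbers mark shared cultures, so they were not taken as pairs. Between the 2 genotype groups, the deviations of same-numbered libraries had a correlation of 0.572 across genes, and between the days of E14 it ran from -0.190 to 0.351. A fit with the replicate number as a block called 3 members lower between the genotypes (Hand1, Hand2 and Tbx20), 19 other cardiac regulators, 10 other sarcomere genes and 2973 genes in all. In the time course the block called 8 members at day 4 against day 0.

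With 2 libraries a group, precision rests on few values, and Mef2c, Tbx5, Myocd, Nkx2-5 and Tnnt2 rest on 85 reads or fewer in every library. The Hand1 gap between E14 libraries was 2.07 in CPM with a pseudocount of 0.1.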
